A study of Mus musculus with 15 samples.

Results

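The chromatin around 10 genes of the p53 pathway and of the apoptosis machinery was followed in mouse embryonic fibroblasts (MEFs), connective tissue cells grown from embryos of a C57 background. Chromatin accessibility had been measured by Omni-ATAC-seq, where a transposase cuts open DNA and tags it for sequencing. The genes were Trp53, Mdm2, Btg2, Ccng1, Zmat3, Gdf15, Pmaip1, Bbc3, Bax and Apaf1. A consensus peak was counted as theirs when its nearest protein-coding gene interval in mm10 was one of them, with the peak centre inside the gene or within 100 kb. This gave 111 of 206367 peaks, all of which passed the filter on low counts. They were spread unevenly: Pmaip1 had 23, Btg2 19, Zmat3 15, Mdm2 14, Apaf1 12, Bbc3 10, Ccng1 7, Bax 5, Gdf15 4 and Trp53 2. A nearest gene need not be the gene that a peak regulates.

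The 15 libraries formed 5 groups of 3. Late and early Fra2 cells carried a CRISPRa-VPR-mCherry construct, a guide-directed Cas9 protein without cutting activity that is joined to a transcriptional activator, with guides against Fosl2, the gene of Fra2. Late and early control cells carried the same construct with scrambled guides, and the cells of these 4 groups were purified by sorting as positive for mCherry and THY1, a fibroblast surface protein. MEFs of the Ezh2 inhibitor group had received 4 µM GSK343 for 3 days, followed by 1 washout day. Most sample labels give 3 and 10 days after infection and the series description 4 and 11, so the times are called early and late here, while early control 3 and the inhibitor libraries are labelled day 4. Transduction and sorting of the inhibitor cells are not mentioned in the labels, and neither is the source of the replicates, so a p-value refers to the variation among libraries and that variation may be technical. The inhibitor group is set against early control cells and also against early Fra2 cells. Construct, sorting and inhibitor cannot be told apart in either comparison.

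The transcription factor p53, encoded by Trp53, is stabilised after DNA damage and oncogenic stress and binds DNA elements made of paired half-sites. Its targets include brakes on proliferation and genes that commit a cell to death. Mdm2, itself a p53 target, is the ubiquitin ligase that degrades p53. Among the death genes, Pmaip1 (Noxa) and Bbc3 (Puma) encode BH3-only proteins that neutralise anti-apoptotic Bcl2 family members, Bax forms pores in the outer mitochondrial membrane, and Apaf1 builds the apoptosome. Fibroblasts are a classic cell type for studying this pathway. Fra2 is a subunit of the transcription factor AP-1, and Ezh2 is the catalytic subunit of the Polycomb complex that places a repressive histone mark.

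Upstream sequences are shown for the genes with a p53 half-site near a listed transcription start, and for the start regions of Btg2 and Bbc3, whose surroundings changed as described further on. RefSeq (GRCm38.p6, the assembly also named mm10) listed starts for 8 of the 10 genes, in 11 windows of 250 bases before a start. The p53 half-site of 10 letters, a motif identical on both strands, was found in 4 of the 11 windows, against 7.13% of 32851 such windows of all genes. Paired half-sites with a gap of up to 13 bases were found in 0 of 11, against 0.0639% of all windows, and the AP-1 motif TGANTCA, also identical on both strands, in 0 of 11, against 6.75%. Capitals mark the half-site, which began at −186 from the start in Mdm2, −185 in Ccng1, −75 in Trp53 and −201 in Bax. The windows, 5′ to 3′ on the gene's strand, were chr10:117710759-117711008 (minus strand) for Mdm2, chr11:40755287-40755536 (minus) for Ccng1, chr11:69580109-69580358 (plus) for Trp53, chr7:45466899-45467148 (minus) for Bax, chr1:134079156-134079405 (minus) for Btg2 and chr7:16310011-16310260 (plus) for Bbc3.
Mdm2: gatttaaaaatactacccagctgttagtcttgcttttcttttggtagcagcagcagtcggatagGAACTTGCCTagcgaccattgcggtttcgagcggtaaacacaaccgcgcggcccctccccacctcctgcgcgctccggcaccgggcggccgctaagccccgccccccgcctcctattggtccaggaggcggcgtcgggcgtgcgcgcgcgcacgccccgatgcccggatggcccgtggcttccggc
Ccng1: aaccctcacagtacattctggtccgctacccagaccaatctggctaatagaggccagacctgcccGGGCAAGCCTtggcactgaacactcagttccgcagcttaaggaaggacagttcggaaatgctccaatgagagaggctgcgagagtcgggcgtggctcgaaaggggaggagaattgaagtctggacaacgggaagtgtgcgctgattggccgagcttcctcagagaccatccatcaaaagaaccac
Trp53: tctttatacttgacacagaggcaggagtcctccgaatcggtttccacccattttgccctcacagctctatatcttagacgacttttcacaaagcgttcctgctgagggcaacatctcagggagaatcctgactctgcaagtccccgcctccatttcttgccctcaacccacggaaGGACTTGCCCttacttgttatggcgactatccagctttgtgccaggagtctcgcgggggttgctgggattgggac
Bax: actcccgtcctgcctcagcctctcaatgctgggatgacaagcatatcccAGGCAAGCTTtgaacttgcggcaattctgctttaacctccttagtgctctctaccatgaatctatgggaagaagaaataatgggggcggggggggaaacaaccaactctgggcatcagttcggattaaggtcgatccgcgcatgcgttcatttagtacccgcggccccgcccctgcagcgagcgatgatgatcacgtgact
Btg2: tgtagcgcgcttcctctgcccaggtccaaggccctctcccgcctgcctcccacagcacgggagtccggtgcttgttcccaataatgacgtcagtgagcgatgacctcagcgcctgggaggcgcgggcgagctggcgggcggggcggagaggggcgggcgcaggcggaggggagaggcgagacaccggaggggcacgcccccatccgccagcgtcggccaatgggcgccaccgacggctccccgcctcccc
Bbc3: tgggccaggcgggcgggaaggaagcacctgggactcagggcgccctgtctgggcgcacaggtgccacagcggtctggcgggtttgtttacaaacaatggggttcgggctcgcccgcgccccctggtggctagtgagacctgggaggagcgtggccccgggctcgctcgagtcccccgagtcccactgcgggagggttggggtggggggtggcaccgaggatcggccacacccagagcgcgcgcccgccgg

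Reads in peaks came to between 6.75 and 25.3 M (mega) per library, and 3 counts, the limit that a count of 0 allows, to between 0.117 and 0.42 CPM. CPM here means counts per mega reads in peaks after TMM scaling. Nearly all peaks are 502 bp wide, so CPM of different peaks can be set side by side. Early control 3 was the shallowest library and stood apart: its Spearman correlation with the other early controls was 0.737 and 0.745, against 0.872 or more for every other pair within a group, and values without it are given at the described peaks where it changed a call. Gene-end peaks of fibroblast markers had a median of 12 CPM (11 of 12 genes with such a peak), against 6.03 CPM for all gene-end peaks. Endothelial, epithelial and neuronal markers had medians of 3.92, 3.15 and 5.2 CPM, each with 4 of 6 genes, and macrophage markers 9.52 CPM with 3 of 6. Some lists moved with the groups. Summed endothelial marker peaks held 17.9 to 19.4 CPM in late Fra2, 14.4 to 15.5 in late control, 17.9 to 20.7 in early Fra2, 14.2 to 15.3 in inhibitor and 14.8 to 17.7 CPM in early control libraries. Summed neuronal marker peaks held 20.6 to 22.6, 25.4 to 30.6, 21.7 to 25.3, 22.4 to 23.5 and 27.3 to 30.5 CPM in the same order, and fibroblast ones 107 to 121, 130 to 152, 120.0 to 147, 117 to 124 and 122 to 169 CPM. Epithelial sums ran between 9.54 and 16.1 CPM, highest in early control libraries, although over all 60 peaks of epithelial marker genes 12 were called higher (20%) and 3 lower (5%) in early Fra2 than in early control cells, with a median log2 fold change of 0.22. Macrophage sums ran between 24.9 and 34.4 CPM, highest in late Fra2 libraries. The part of other cell types in the results was not tested. In such bulk samples, fewer cells with an open site and less opening per cell cannot be told apart. At Fosl2, the gene targeted by the guides, 9 of 36 peaks were called higher and 0 lower in early Fra2 cells, where 10.1% and 4.92% of all peaks were. Late Fra2 cells had 8 higher and 2 lower, where 6.44% and 3.54% of all peaks were. The most accessible Fosl2 peak, 0.7 kb before the start, was not called in either comparison. It averaged 42.9 ± 4.93 CPM in early Fra2 and 43.8 ± 8.1 CPM in early control cells (edgeR adjusted p = 0.888). Late Fra2 cells had 38.1 ± 1.46 and late control cells 48.5 ± 5.65 CPM (0.13). These are measures of chromatin and not of Fra2 levels.

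Early Fra2 cells had lower accessibility than early control cells in a block at the 3′ side of Btg2, inside Apaf1 and inside Gdf15. They had higher accessibility at a distance from Pmaip1. At the Apaf1 site early control cells alone were high, and the Btg2 block was chosen after its values were seen. Against early control cells, 9 of the 111 peaks were called higher, where 10.1% of all tested peaks were, and 12 lower, where 4.92% were. A peak was called at a Benjamini-Hochberg adjusted p under 0.05 over all 206349 peaks tested in edgeR's quasi-likelihood fit. In either direction 21 peaks were called, or 18.9%, against a background of 15%. The median log2 fold change was −0.22 over the 111 peaks and −0.03 over all peaks. Without early control 3, 10 were higher (background 11.8%) and 19 lower (background 7.74%).

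In late Fra2 cells, Pmaip1 had 2 peaks that rose and Bbc3 3 that fell. Against late control cells, 6 peaks were called higher (background 6.44%) and 3 lower (background 3.54%), which is 8.11% in either direction against 9.98% of all peaks. The median log2 fold change was −0.15 over the 111 peaks and −0.01 over all peaks. In the Ezh2 inhibitor group, 1 peak was called higher (background 0.552%), at Btg2, and 3 lower (background 0.341%), at Apaf1, Bax and Zmat3. That makes 4 peaks against a background of 0.893%, with a median log2 fold change of −0.02 over the 111 peaks and 0.0 over all. Among controls, late cells had 0 higher (background 2.04%) and 8 lower peaks (background 1.23%; 3.28% in either direction) than early cells, 6 of them at Btg2. Single libraries moved these counts. Calls over all peaks also moved when 1 library was left out (ranges in the last section), so such moves are not particular to the 111 peaks. The totals that follow include peaks called only in the reduced fit. In place of 9 calls, late Fra2 cells had 3 without late Fra2 1 (7 of the 9 lost), 4 without late control 2 and 4 without late control 3. In place of 4, inhibitor cells had 0 without early control 2, inhibitor 1 or inhibitor 3 and 1 without inhibitor 2. Without early control 3 they had 5, with 2 of the 4 lost. In place of 8, late against early control cells had 4 without early control 2 and 10 without early control 3.

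Early Fra2 cells set directly against Ezh2 inhibitor cells gave 10 higher (background 9.02%) and 11 lower peaks (background 5.2%; 14.2% in either direction). Construct, sorting, labelled day (3 and 4) and the 2 treatments cannot be told apart there, which holds for each such call below. The comparisons of early Fra2 cells and of inhibitor cells share their early control libraries. The Fra2 effect was called different between late and early cells at 0 of the 111 peaks in edgeR's test, against 0.0935% of all peaks (0.0116% higher, 0.0819% lower), while 11 had an unadjusted p under 0.05 and DESeq2 called 0 of the 55 peaks for which it gave an adjusted p. Without early control 3, 2 of the 111 were called. Groups whose libraries did not overlap were common. In early Fra2, late Fra2 and inhibitor cells against their controls, 27%, 31.3% and 18% of all peaks were apart in either direction. Among the 111 peaks the shares were 30.6%, 30.6% and 24.3%. Between early Fra2 and inhibitor cells they were 34.6% of all and 42.3% of member peaks.

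The direction of the calls moved with the scaling of the libraries. With scaling factors taken from gene-end peaks, the median of all peaks lay at 0.17 for early Fra2 cells, 0.22 for late Fra2 cells and 0.14 for inhibitor cells on the log2 scale, against their controls. Member calls were then 14 higher (background 18.4%) and 6 lower (1.49%) in early Fra2 cells, 11 (16.4%) and 0 (0.961%) in late Fra2 cells, 6 (3.58%) and 2 (0.26%) in inhibitor cells, and 2 (3.63%) and 9 (0.977%) in late against early control cells. With cyclic loess scaling the splits were 10 (11.6%) and 21 (8.26%), 6 (6.98%) and 5 (4.22%), 4 (1.34%) and 4 (1.25%), and 2 (2.66%) and 12 (2.07%) for those comparisons in the same order. No called peak changed its sign under either scaling.

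**Figure D1:**
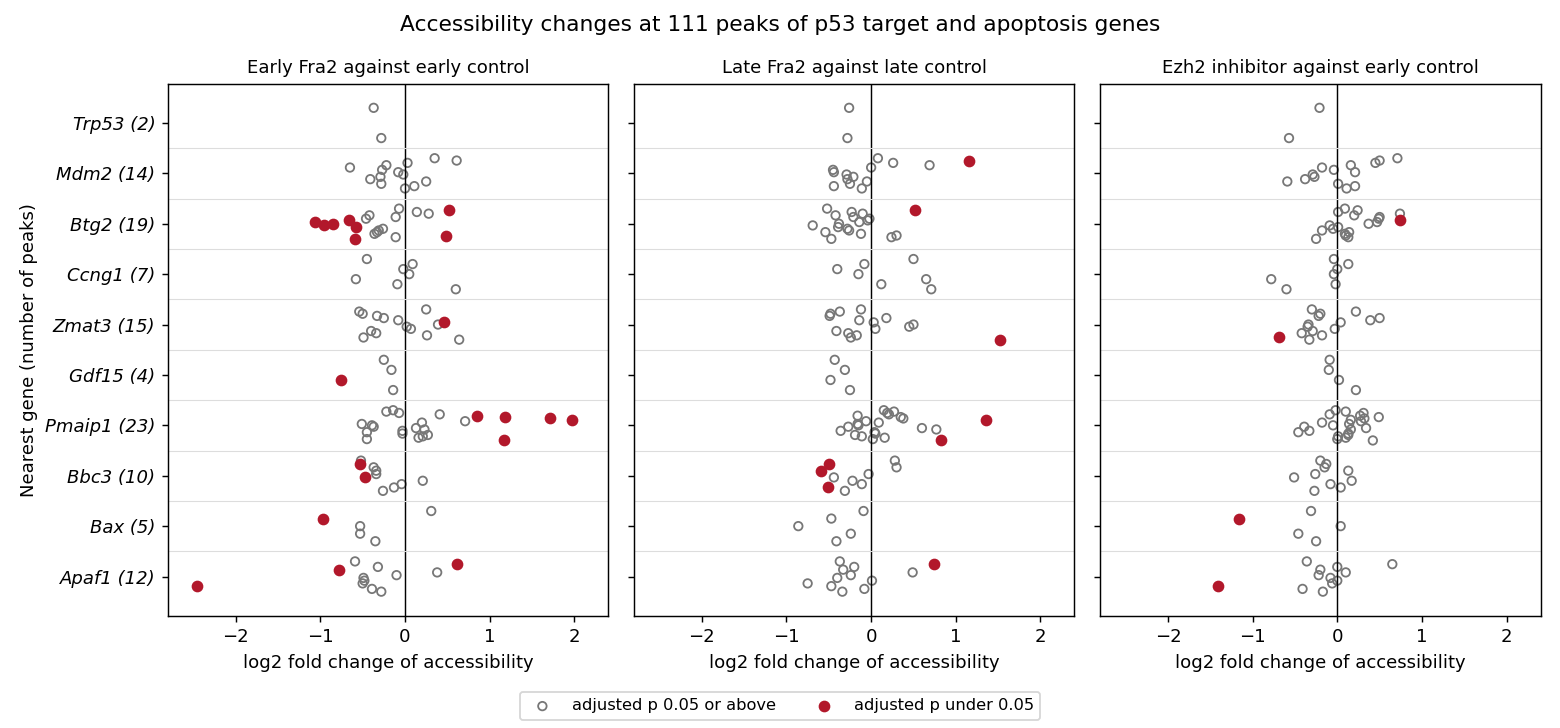
Log2 fold change of accessibility (x axis) at each of the 111 peaks, in rows by nearest gene, in panels for early Fra2 cells, late Fra2 cells and inhibitor cells, each set against its controls. Each circle is a peak, ordered by position within a gene, and filled circles are called. The filled circles to the right at Pmaip1 and to the left at Btg2 and Apaf1 stand out in the early Fra2 panel, where 9 and 12 circles are filled on the higher and lower sides.

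Trp53, the gene of p53 itself, had no called peak in any comparison, and Mdm2, its negative regulator, had 1 in late Fra2 cells and 1 between early Fra2 and inhibitor cells. The more accessible Trp53 peak (chr11:69581279-69581780, 1.2 kb inside the gene) averaged 12.1 ± 1.23 CPM in late Fra2, 14.4 ± 2.12 in late control, 12.4 ± 0.834 in early Fra2, 13.8 ± 0.199 in inhibitor and 15.5 ± 5.27 CPM in early control cells (SD, n = 3 each). Early Fra2 and inhibitor values lay within the range of early control cells. Those controls had the widest spread, with early control 3 at 9.66 CPM beside 19.9 and 16.9. Without that library the early Fra2 change was called at a log2 fold change of −0.57 (adjusted p = 0.00174; over all alternatives 0.00174 to 0.64). The peak at the Trp53 start itself lies nearest to Wrap53, which is transcribed from the same region, and averaged 9.36 ± 1.7 CPM in early Fra2 and 11.1 ± 2.5 CPM in early control cells, an uncalled difference.

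The Mdm2 start peak (chr10:117710456-117710957) averaged 12.2 ± 1.64 CPM in early Fra2 and 16.2 ± 1.02 CPM in early control cells, with a log2 fold change of −0.41 ± 0.16 (SE) and an adjusted p of 0.0681. Its 3 early Fra2 values lay below the 3 control values, a separation seen in either direction at 27% of all peaks. Leaving out early control 3 brought the adjusted p to 0.0211 (0.0143 to 0.275 over all alternatives). At the opposite end of Mdm2, a weak peak (chr10:117689029-117689530) held 3.6, 3.41 and 4.3 CPM in late Fra2 cells against 1.94, 1.33 and 1.83 CPM in late control cells. Its log2 fold change was 1.15 ± 0.27 (adjusted p = 0.00384), and it was called in every alternative. At a −log10 q of 2 or more, the authors' peak lists held this site in 3 late Fra2, 2 early Fra2, 2 inhibitor and 0 control libraries. A site listed only in treated libraries favours a gain over controls, so this gain is a description. In early Fra2 cells the same peak held 2.61, 2.96 and 2.45 CPM and in early control cells 1.45, 1.23 and 3.08 CPM, which overlap. A peak 5.8 kb before the start was higher in early Fra2 than in inhibitor cells, at 2.78 ± 0.235 against 1.55 ± 0.034 CPM (log2 fold change 0.84 ± 0.26, adjusted p = 0.022), a call lost without any 1 inhibitor library, early Fra2 1 or early Fra2 3 (adjusted p = 0.0539 to 0.0742).

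Btg2, an anti-proliferative p53 target of the BTG/TOB family, lost accessibility inside the gene and just beyond its 3′ end. Of its 19 peaks, 6 were called lower (background 4.92%) and 2 higher (background 10.1%) in early Fra2 cells. The lead peak (chr1:134074174-134074675) lies 4.7 kb downstream of the start and 441 bp past the gene's end. It held 11.8, 14.3 and 6.99 CPM in early Fra2 cells against 25.9, 21.2 and 21.6 CPM in early control cells. All early Fra2 values were below all control values, with a log2 fold change of −1.06 ± 0.18 (adjusted p = 1.1e-05; 8.99e-10 to 0.00407 over all alternatives).

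Late cells were low at this peak whichever guides they carried. Late Fra2 cells held 9.03, 6.29 and 7.0 CPM and late control cells 7.02, 8.51 and 9.2 CPM, values that overlap (log2 fold change −0.14 ± 0.19, adjusted p = 0.664). Late control cells were thus lower than early control cells by a log2 fold change of −1.47 ± 0.18 (adjusted p = 4.16e-07). Inhibitor cells held 29.1, 30.5 and 36.1 CPM, above every early control value, although the difference was not called (0.47 ± 0.16, adjusted p = 0.139). Set directly against inhibitor cells, early Fra2 cells were lower, with a log2 fold change of −1.53 ± 0.17 (adjusted p = 1.42e-09). The difference between the late and the early Fra2 effect was 0.92 ± 0.26 (adjusted p = 0.142), and it was called in 3 of 18 alternatives: with gene-end scaling (adjusted p = 0.0434), with cyclic loess scaling (0.000765) and without early control 3 (0.0208), over a range up to 0.373.

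The lead peak belonged to 5 adjacent peaks, from 5.6 to 1.7 kb downstream of the start over 4.4 kb, all called lower in early Fra2 cells. The call at the peak farthest from the start was lost without early control 1 (adjusted p = 0.101) or early Fra2 3 (0.0771), and that at the peak nearest to it without early control 1, early control 2, early Fra2 1 or early Fra2 3 (0.0637 to 0.1). This block was chosen after its values were seen, from peaks called lower in early Fra2 than in early control cells. Lower sums in early Fra2 than in early control cells are thus built in, and the sum is a description. The choice also favours low early Fra2 sums and high early control sums beside the other groups. Summed CPM came to 21.5, 16.6 and 20.3 in late Fra2, 22.7, 21.7 and 25.3 in late control, 27.8, 33.8 and 21.4 in early Fra2, 63.4, 62.7 and 71.4 in inhibitor and 54.4, 50.8 and 43.7 in early control cells. Inhibitor and early control cells formed the high end of the sums and the other 3 groups the low end, with no overlap between them.

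Within the block, the peak farthest from the start (chr1:134073255-134073756) was the only member peak called higher in inhibitor cells. It held 13.4, 10.8 and 11.8 CPM there against 8.26, 7.62 and 4.76 CPM in early control cells (log2 fold change 0.74 ± 0.16, adjusted p = 0.0158). The call was lost without early control 2, inhibitor 1 or inhibitor 3 (adjusted p = 0.052 to 0.11) and with only these groups in the fit. The peak at the Btg2 start (chr1:134078864-134079365), whose upstream bases are printed above, was the most accessible of the gene, at 18 ± 1.03 CPM in late Fra2, 21.4 ± 2.73 in late control, 24.5 ± 2.17 in early Fra2, 26.7 ± 0.265 in inhibitor and 29.9 ± 6.21 CPM in early control cells. It was not called in any comparison, while without early control 3 the early Fra2 change was −0.46 (adjusted p = 0.0068; 0.0068 to 0.539 over all alternatives).

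Outside the block, Btg2 had single peaks in both directions. A peak 13.6 kb downstream of the start rose by a log2 fold change of 0.52 ± 0.16 in late Fra2 cells, at 9.97 ± 0.499 against 7.0 ± 1.02 CPM in late control cells (adjusted p = 0.0297). That call was lost without late control 2, late control 3, late Fra2 1 or late Fra2 2 (adjusted p = 0.0745 to 0.19). In early Fra2 cells it held 7.85 ± 1.13 against 5.33 ± 1.59 CPM in early control cells (0.52 ± 0.18, adjusted p = 0.0363), a call that was lost without early control 1, early control 3, early Fra2 1 or early Fra2 2 (adjusted p = 0.0743 to 0.209; 0.000907 to 0.209 over all alternatives). A peak 13.9 kb before the start fell in early Fra2 cells, at 13.3 ± 2.31 against 19.7 ± 5.19 CPM (−0.59 ± 0.17, adjusted p = 0.0102), a call lost without early control 1 (0.14) or early Fra2 3 (0.0804).

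**Figure D2:**
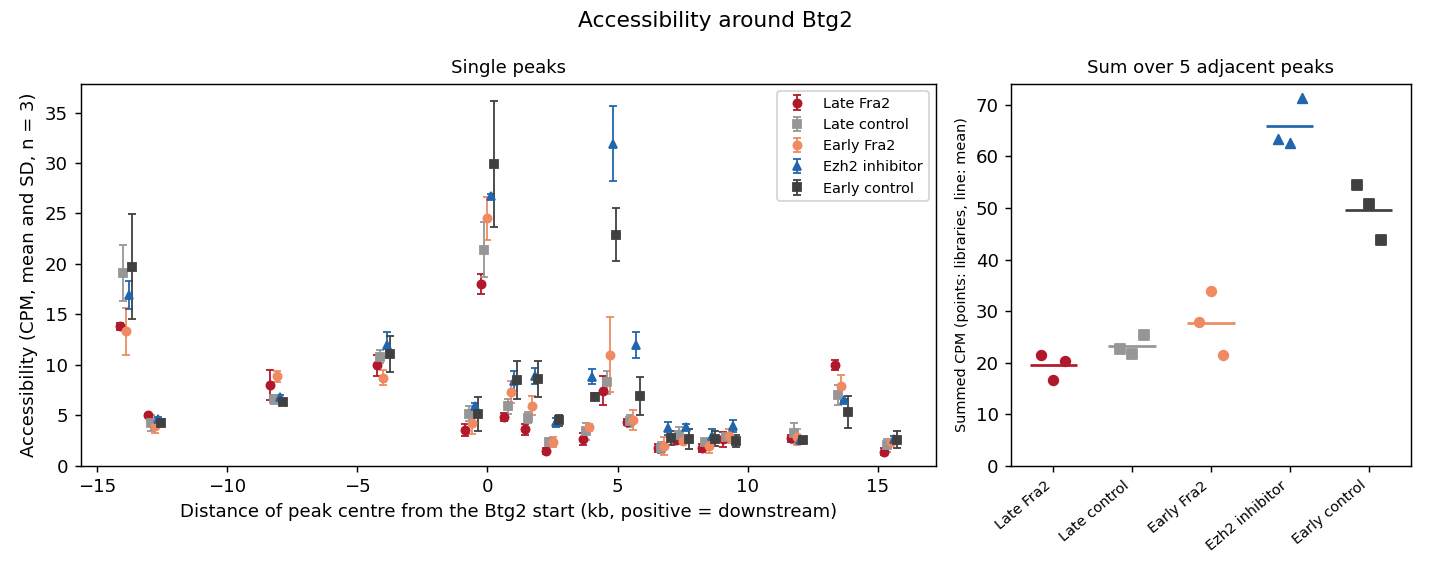
Left, accessibility (CPM, mean and SD, n = 3) of the Btg2 peaks within 16 kb of the gene's start against the distance of the peak centre from it, with groups drawn slightly apart at each peak. Right, the sum over the 5 adjacent peaks in each library, where inhibitor (62.7 to 71.4) and early control libraries (43.7 to 54.4) lie above all others. The 5 peaks were chosen because they were called lower in early Fra2 than in early control cells.

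Ccng1, which encodes cyclin G1, a p53 target that recruits a phosphatase to Mdm2, had the most accessible peak of all 111. Its start peak (chr11:40755110-40755611) averaged 27 ± 2.16 CPM in late Fra2, 35.7 ± 3.53 in late control, 34.7 ± 4.57 in early Fra2, 35.2 ± 0.646 in inhibitor and 34.7 ± 10.3 CPM in early control cells. The late Fra2 values lay below the late control values, a separation seen in either direction at 31.3% of all peaks. The log2 fold change was −0.4 ± 0.16 with an adjusted p of 0.0992, and the other groups overlapped. The gene's only call was a distal peak 48.0 kb from it (chr11:40803072-40803573), which held 3.42, 3.68 and 2.88 CPM in early Fra2 cells against 1.41, 1.72 and 1.2 CPM in inhibitor cells (1.2 ± 0.28, adjusted p = 0.00157). Early control cells, at 2.15, 1.52 and 3.22 CPM, overlapped both groups.

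**Figure D3:**
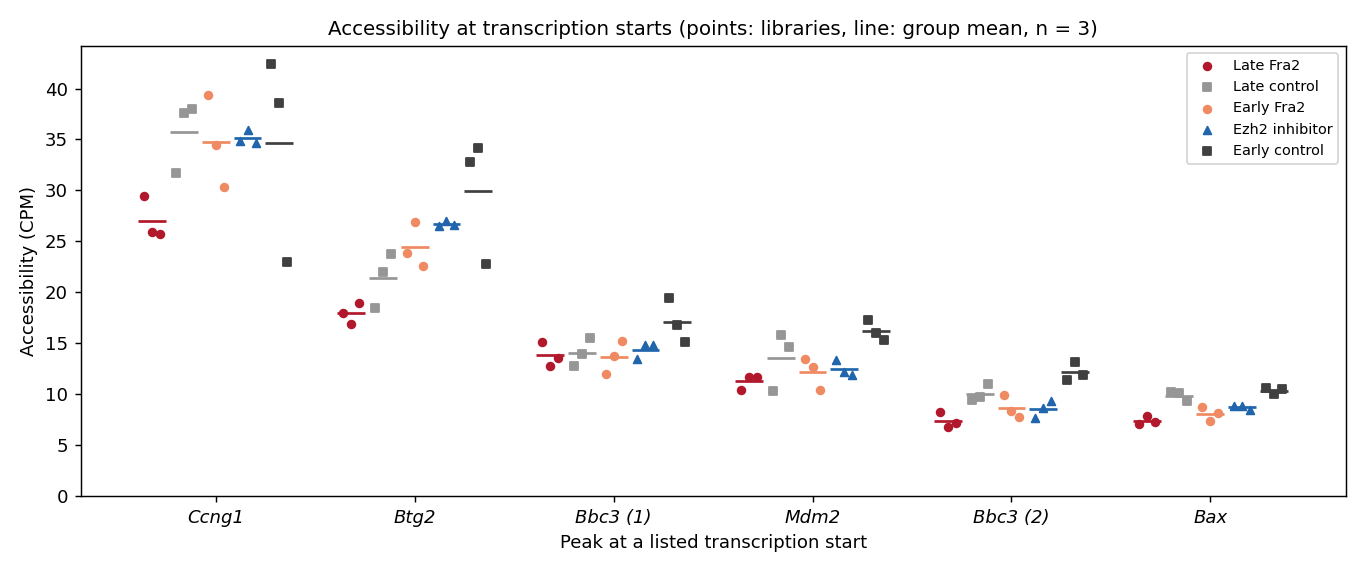
Accessibility (CPM) in each library at the 6 member peaks centred within 500 bp of a start that RefSeq lists for the same gene, with a line at each group mean (n = 3). Ccng1 and Btg2 stand highest, and early control 3 is the lowest early control at both; Bbc3 has 2 such peaks.

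Those 6 start peaks had median log2 fold changes of −0.35 in early Fra2, −0.34 in late Fra2 and −0.26 in inhibitor cells against their controls. Over all 12860 peaks near a listed start the medians were −0.25, −0.28 and −0.2. In the early Fra2 comparison 1 of the 6 was called lower, against 9.3% of all such peaks, and in the late Fra2 and inhibitor comparisons 0 of 6, against 13.3% and 0.747% in either direction.

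Zmat3, which encodes a zinc-finger RNA-binding protein, had calls that differed between comparisons. Its most accessible peak (chr3:32334160-32334661), 382 bp outside the gene, averaged 16.8 ± 1.03 CPM in early Fra2 and 11.8 ± 3.23 CPM in early control cells (log2 fold change 0.46 ± 0.16, adjusted p = 0.0488). Early control 3 was the low value, at 8.12 CPM beside 13.9 and 13.5, and without it the adjusted p was 0.144 (0.000274 to 0.192 over all alternatives). Leaving out early control 2 or any 1 early Fra2 library also ended this call. In late cells a very weak peak 14 kb outside the gene (chr3:32379387-32379888) held 2.65, 1.87 and 1.9 CPM with Fra2 guides against 1.34, 0.543 and 0.426 CPM in controls (1.52 ± 0.42, adjusted p = 0.0139), a call lost without late control 2, late control 3 or late Fra2 1 (0.0872 to 0.117). At a −log10 q of 2 or more, the authors' peak lists held this site in only 2 libraries, both late Fra2. A site listed only where it is high favours a gain there, so this gain is a description. In inhibitor cells a peak 2.1 kb outside the gene (chr3:32367509-32368010) fell to 5.01, 5.22 and 4.97 CPM, against 7.51, 9.29 and 7.7 CPM in early control cells (−0.69 ± 0.18, adjusted p = 0.0372), a call lost in 7 of 12 alternatives, among them those without early control 2 or any 1 inhibitor library (0.106 to 0.193). Early Fra2 cells differed from inhibitor cells at 5 Zmat3 peaks, 2 higher and 3 lower, led by a peak 17.0 kb outside the gene at 2.58 ± 0.641 against 4.48 ± 0.212 CPM (−0.77 ± 0.21, adjusted p = 0.00832), which was not called without early Fra2 2 (0.0759).

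Gdf15, a secreted stress cytokine of the TGF-β superfamily, lost accessibility inside the gene. The peak 1.2 kb downstream of its start (chr8:70630636-70631137) held 4.13, 4.64 and 4.54 CPM in early Fra2 cells against 7.08, 7.26 and 8.12 CPM in early control cells. The groups did not overlap, the log2 fold change was −0.75 ± 0.18 (adjusted p = 0.00269), and the call was kept in every alternative. Inhibitor cells, at 7.56, 7.54 and 7.42 CPM, were within the control range, and early Fra2 cells were lower than inhibitor cells, with a log2 fold change of −0.77 ± 0.17 (adjusted p = 0.00106). Late Fra2 cells held 4.02, 3.47 and 6.02 CPM against 6.27, 6.46 and 5.85 CPM in late control cells, which overlap (−0.48 ± 0.18, adjusted p = 0.0683). The gene's most accessible peak, at its 3′ end, averaged 8.73 ± 2.26 CPM in early Fra2 and 9.49 ± 1.98 CPM in early control cells and was not called.

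Pmaip1 showed the largest gains of the 10 genes in early Fra2 cells. The lead peak (chr18:66438817-66439318), 19.5 kb from the gene, held 11.8, 11.4 and 10.7 CPM in early Fra2 cells against 2.9, 2.54 and 3.36 CPM in early control cells. That is 3.92-fold, a log2 fold change of 1.97 ± 0.19 (adjusted p = 1.5e-11; 1.59e-16 to 1.63e-06 over all alternatives). In late cells it held 9.07, 7.31 and 7.43 CPM with Fra2 guides against 2.84, 3.68 and 2.74 CPM in controls (1.36 ± 0.18, adjusted p = 6.05e-07). All 6 Fra2 libraries lay above all 6 control libraries.

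Inhibitor cells overlapped early control cells at this peak, with 3.56, 3.36 and 2.72 CPM (log2 fold change 0.16 ± 0.21, adjusted p = 0.779). Early Fra2 cells exceeded them by 1.82 ± 0.17 on the log2 scale (adjusted p = 4.42e-12). The late Fra2 effect minus the early one was −0.61 ± 0.27 (adjusted p = 0.434).

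Further out from Pmaip1, 3 more peaks within 29.8 kb were called higher in early Fra2 cells, with log2 fold changes of 0.85 ± 0.21, 1.18 ± 0.22 and 1.71 ± 0.38. None of these 3 was called in late Fra2 cells, at log2 fold changes of −0.16, 0.35 and 0.38. The difference of the Fra2 effects was not called at any of them, but without early control 3 it was at the peak 27.8 kb out (−1.97, adjusted p = 0.0418; 0.0418 to 0.599 over all alternatives). Together with the lead peak they form 4 adjacent peaks over 10.8 kb. This group was chosen after its values were seen, from peaks called higher in early Fra2 than in early control cells. Summed CPM of the group came to 20.8, 17.3 and 19.5 in late Fra2, 14.2, 13.1 and 12.5 in late control, 25.7, 25.7 and 23.8 in early Fra2, 11.8, 11.5 and 10.4 in inhibitor and 8.75, 8.85 and 10.2 in early control cells. The early Fra2 sums were the highest and the late Fra2 sums the next, with no overlap with any other group. Higher sums in early Fra2 than in early control cells were built in by the choice of peaks. That choice also favours high early Fra2 sums and low early control sums beside the other groups.

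On the other side of Pmaip1, a peak 88.9 kb away (chr18:66554257-66554758) rose in both Fra2 comparisons. It held 6.69, 8.15 and 6.05 CPM in early Fra2 cells against 3.22, 2.9 and 3.08 CPM in early control cells (1.17 ± 0.21, adjusted p = 5.66e-05), and 4.97, 3.36 and 4.73 CPM in late Fra2 cells against 2.91, 1.63 and 2.92 CPM in late control cells (0.82 ± 0.22, adjusted p = 0.0104). The late call was lost without late control 2 (adjusted p = 0.131) or late Fra2 1 (0.0813). The gene-end peak 78 bp from Pmaip1 (chr18:66458276-66458777), its most accessible, averaged 9.63 ± 1.42 CPM in early Fra2 and 12.5 ± 2.87 CPM in early control cells (−0.39 ± 0.16, adjusted p = 0.0968). Without early control 3 that gene-end peak was called lower (−0.49, adjusted p = 0.0139; 0.0139 to 0.532 over all alternatives). A peak 71.1 kb away was lower in late than in early control cells, at 1.91 ± 0.408 against 3.73 ± 0.598 CPM (−0.94 ± 0.26, adjusted p = 0.0292), a call lost without late control 1, late control 2 or early control 2 (0.0843 to 0.148).

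**Figure D4:**
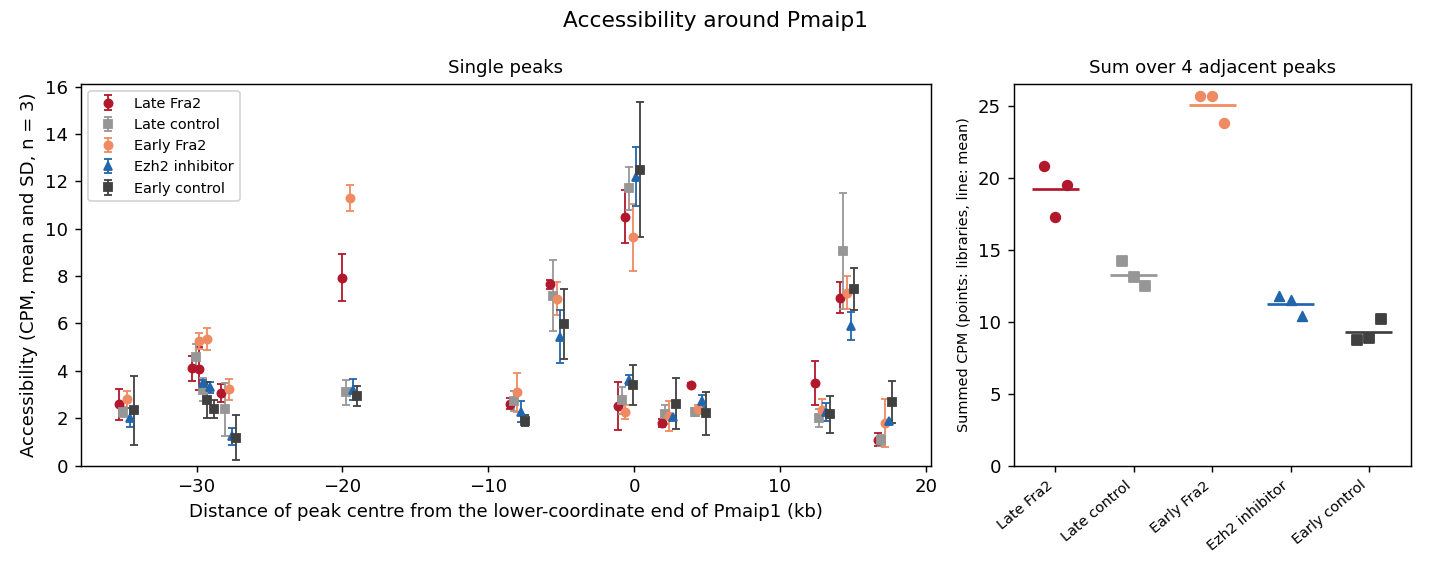
Left, accessibility (CPM, mean and SD, n = 3) of Pmaip1 peaks between 40 kb before and 25 kb after the lower-coordinate end of the gene, with groups drawn slightly apart at each peak. Right, the sum over the 4 adjacent peaks in each library, where early Fra2 (23.8 to 25.7) and late Fra2 libraries (17.3 to 20.8) lie above the others. The 4 peaks were chosen because they were called higher in early Fra2 than in early control cells.

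Bbc3, the other BH3-only gene among the 10, was called only in the lower direction. Of its 10 peaks, 2 were called lower in early Fra2 cells (background 4.92%) and 3 in late Fra2 cells (background 3.54%). None was called higher (backgrounds 10.1% and 6.44%). The peak at a listed start (chr7:16309913-16310414), which holds the Bbc3 bases printed above, held 9.92, 8.39 and 7.78 CPM in early Fra2 cells against 11.4, 13.2 and 11.9 CPM in early control cells (log2 fold change −0.47 ± 0.16, adjusted p = 0.0316). In late cells it held 8.22, 6.83 and 7.18 CPM with Fra2 guides against 9.41, 9.77 and 11.0 CPM in controls (−0.44 ± 0.15, adjusted p = 0.0577). Neither pair of groups overlapped, as at 27% (early) and 31.3% (late) of all peaks, and only the early difference was called. It was not called without early control 2, early Fra2 2 or early Fra2 3 (adjusted p = 0.0854 to 0.137). Over all peaks near a listed start the median log2 fold changes were −0.25 in early and −0.28 in late Fra2 cells.

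A peak 8.7 kb outside Bbc3 (chr7:16299490-16299991) was called lower in both, at 9.83 ± 2.1 CPM in early Fra2 against 14.1 ± 2.02 CPM in early control cells (−0.53 ± 0.16, adjusted p = 0.0206) and 10.6 ± 0.824 CPM in late Fra2 against 15 ± 2.31 CPM in late control cells (−0.5 ± 0.16, adjusted p = 0.0293). The other late calls were a gene-end peak (−0.59 ± 0.19, adjusted p = 0.0325) and a peak inside the gene, 2.8 kb downstream of a listed start (−0.51 ± 0.16, adjusted p = 0.0293). Each of these calls also rested on single libraries. At the peak 8.7 kb outside, the early call was lost without early control 1, early Fra2 2 or early Fra2 3 (adjusted p = 0.0767 to 0.132), and the late call without late control 2, late control 3 or any 1 late Fra2 library (0.0525 to 0.225). The gene-end call was lost without any 1 late control library, late Fra2 1 or late Fra2 3 (0.0602 to 0.127), and the call inside the gene without late control 1, late control 3, late Fra2 1 or late Fra2 2 (0.0741 to 0.197). None of the Bbc3 calls was kept with gene-end scaling, where the log2 fold changes lay between −0.37 and −0.27. The gene's most accessible peak (chr7:16309180-16309681) averaged 13.7 ± 1.63 CPM in early Fra2 and 17.1 ± 2.15 CPM in early control cells and was not called (−0.34 ± 0.15, adjusted p = 0.12), though it was without early control 3 (−0.42, adjusted p = 0.0249; 0.0249 to 0.468 over all alternatives).

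At Bax, the most accessible peak lies 644 bp beyond the gene's end (chr7:45460801-45461302). It averaged 23.6 ± 2.61 CPM in early Fra2 and 15.4 ± 1.84 CPM in inhibitor cells, a called difference (log2 fold change 0.62 ± 0.15, adjusted p = 0.00355) that was lost without inhibitor 3 (0.0542), and 18.8 ± 3.52 CPM in early control cells. Inhibitor and early control cells did not differ by a call at this peak (−0.31, adjusted p = 0.345), but did without early control 3 (−0.43, adjusted p = 0.0474; 0.0474 to 0.695 over all alternatives). A weak peak at the same end, inside the gene (chr7:45462194-45462695), held 1.33, 2.08 and 3.1 CPM in early Fra2, 1.93, 1.95 and 1.67 CPM in inhibitor and 2.9, 4.14 and 6.02 CPM in early control cells. Early Fra2 and early control cells overlapped there. The peak was called lower in early Fra2 cells (−0.97 ± 0.29, adjusted p = 0.0161) and in inhibitor cells (−1.16 ± 0.28, adjusted p = 0.0284). Both calls were lost without early control 3, the highest value, at adjusted p = 0.073 (0.00398 to 0.164 over all alternatives) and 0.0522 (0.00572 to 0.141). The early Fra2 call was also lost without early Fra2 1, and the inhibitor call without early control 2 or any 1 inhibitor library. The Bax start peak averaged 8.08 ± 0.692 CPM in early Fra2 and 10.4 ± 0.303 CPM in early control cells and was not called.

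The largest fall of the 111 peaks was inside Apaf1 (chr10:91073453-91073954), 9.0 kb downstream of the start. At a −log10 q of 2 or more, the authors' peak lists held this site in only 2 libraries, both early controls. A site listed only where it is high favours lower values elsewhere, so this fall is a description. The peak held 0.617, 0.56 and 1.08 CPM in early Fra2 cells against 2.41, 3.99 and 6.58 CPM in early control cells (log2 fold change −2.46 ± 0.41, adjusted p = 1.02e-05; 1.78e-07 to 0.000513 over all alternatives). Inhibitor cells, at 1.89, 1.5 and 1.28 CPM, were also below every early control (−1.41 ± 0.36, adjusted p = 0.0363). That inhibitor call was lost without early control 3 (−1.02, adjusted p = 0.085; 0.00622 to 0.182 over all alternatives), and also without early control 2 or any 1 inhibitor library.

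Late Fra2 cells held 0.599, 1.17 and 0.86 CPM at this Apaf1 peak and late control cells 1.87, 0.905 and 0.914 CPM, so that early control cells alone were high. Late control cells were lower than early control cells (−1.77 ± 0.38, adjusted p = 0.00377), and the difference of the Fra2 effects was 1.99 ± 0.59 (adjusted p = 0.174). The early controls varied more here than any other group, with an SD of 2.1 CPM around 4.33 CPM.

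Another Apaf1 peak rose. In the gene body, 53.6 kb downstream of the start (chr10:91028893-91029394), accessibility was 6.46, 6.79 and 5.4 CPM in early Fra2 cells against 4.29, 3.48 and 4.62 CPM in early control cells (0.61 ± 0.19, adjusted p = 0.0211). With Fra2 guides, late cells held 8.39, 5.92 and 6.81 CPM against 3.66, 3.98 and 5.0 CPM in late control cells (0.74 ± 0.18, adjusted p = 0.00379). The early call was lost without early control 2, early Fra2 1 or early Fra2 2 (adjusted p = 0.0769 to 0.124), and the late call without late Fra2 1 (0.0669). Inhibitor cells held 6.2, 6.4 and 6.6 CPM, also above every early control, at an adjusted p of 0.0598 (0.65 ± 0.18). The peak at the Apaf1 start lies nearest to Ikbip, transcribed from the same region, and averaged 13.4 ± 1.84 CPM in early Fra2 and 17.2 ± 1.44 CPM in early control cells. The most accessible peak that falls to Apaf1 (chr10:91060714-91061215) averaged 4.75 ± 0.745 against 6.52 ± 0.591 CPM and was not called (−0.49 ± 0.18, adjusted p = 0.0589). It was called in 4 of 12 alternatives, among them those without early control 3 (−0.54, adjusted p = 0.0307) and with cyclic loess scaling (0.0271), over a range of 0.0271 to 0.292.

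**Figure D5:**
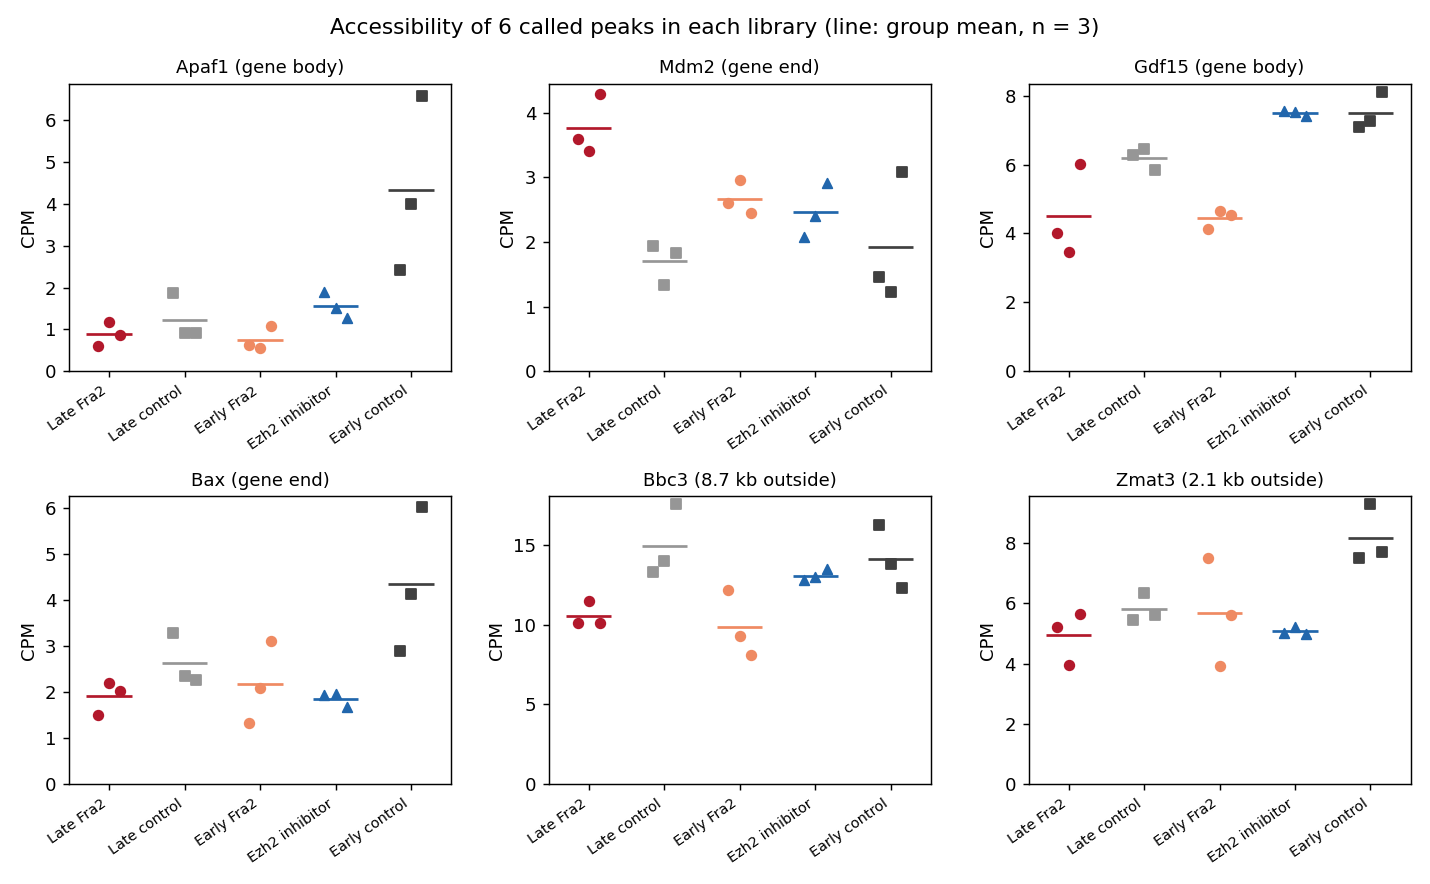
Accessibility (CPM, y axis from 0) in each library at 6 called peaks, 1 each of Apaf1, Mdm2, Gdf15, Bax, Bbc3 and Zmat3, with a line at each group mean (n = 3). Apaf1 and Bax show early control cells high and spread (2.41 to 6.58 and 2.9 to 6.02 CPM), Mdm2 shows late Fra2 cells high, and Gdf15 shows early Fra2 cells low.

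The authors' deposited table of peaks for each library came from the same libraries as the counts, so it is no independent test of the calls. At a −log10 q of 2 or more and at least 1 bp of overlap, 35 of the 111 peaks were in all 15 lists and 0 in none. Single libraries listed 40 (early control 3) to 104 (inhibitor 1) of them. The late Fra2 gain at the 3′ end of Mdm2 appeared in the authors' deposited table as a listed peak in 3 of 3 late Fra2 and 0 of 3 late control libraries. It was also listed in 2 of 3 early Fra2, 2 of 3 inhibitor and 0 of 3 early control libraries. The weak Zmat3 peak at chr3:32379387-32379888 was listed in 2 of 3 late Fra2 and 0 of 3 late control libraries. The remaining late Fra2 gains did not differ this way. The Pmaip1 lead peak and the Apaf1 peak 53.6 kb downstream of the start were listed in 3 of 3 libraries of both late groups. Late Fra2 libraries held 16.1 to 23.4 M reads in peaks and late control libraries 13.3 to 17.3 M, and the part of depth in listing was not tested.

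Other genes of the pathway were taken from lists of p53 targets, p53 regulators and family members, and apoptosis genes. All these lists were drawn up with results of these data known. In early Fra2 cells, 18 of 249 peaks of other p53 targets were higher (7.23%, background 10.1%) and 22 lower (8.84%, background 4.92%), with a median log2 fold change of −0.11. Cdkn1a, which encodes the cell-cycle inhibitor p21, had its lead peak at a gene end (chr17:29100543-29101044) at 3.59 ± 0.963 CPM in early Fra2, 17.6 ± 0.254 CPM in inhibitor and 8.2 ± 0.208 CPM in early control cells. It was thus lower in early Fra2 cells (−1.14 ± 0.18, adjusted p = 6.39e-06) and higher in inhibitor cells (1.1 ± 0.15, adjusted p = 5.96e-05). Perp, a membrane effector of p53, gained at a peak 18.2 kb away, at 9.29 ± 1.23 CPM in early Fra2 against 3.93 ± 2.29 CPM in early control cells (1.4 ± 0.21, adjusted p = 1.37e-06). In late Fra2 cells 9 peaks of these genes were higher (3.61%, background 6.44%) and 3 lower (1.2%, background 3.54%), led by one inside Sesn1, a stress-induced sestrin, at 8.93 ± 1.28 against 4.59 ± 0.591 CPM in late control cells (0.96 ± 0.17, adjusted p = 0.000129). Inhibitor cells had 2 higher (0.803%, background 0.552%) and 0 lower (background 0.341%), both at Cdkn1a. The other Cdkn1a call (0.82, adjusted p = 0.0116) was lost without inhibitor 2 or inhibitor 3 (adjusted p = 0.052 and 0.103) and with only these groups in the fit.

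Among 180 peaks of p53 regulators and family genes, 19 were higher (10.6%, background 10.1%) and 14 lower (7.78%, background 4.92%) in early Fra2 cells, with a median of −0.08. Late Fra2 cells had 15 higher (8.33%, background 6.44%) and 6 lower (3.33%, background 3.54%), with a median of −0.07. The early higher and the late lower share were near the background. The ubiquitin ligase gene Rchy1 led the early gains, at 10.8 ± 1.45 CPM in early Fra2 against 3.91 ± 0.279 CPM in early control cells (1.46 ± 0.18, adjusted p = 1.05e-08). Trp53bp1, a p53-binding DNA damage protein, rose inside the gene, at 6.46 ± 0.852 CPM in early Fra2, 4.43 ± 0.461 CPM in inhibitor and 2.52 ± 0.243 CPM in early control cells. A peak 16.5 kb from Cdkn2a, which encodes the p53 activator Arf, held 18.8 ± 3.17 CPM in early Fra2 against 9.42 ± 2.37 CPM in early control cells (0.96 ± 0.16, adjusted p = 1.83e-05). In late Fra2 cells the lead peak was 13.5 kb from Trp63, a p53 relative, at 6.43 ± 0.635 against 3.12 ± 0.633 CPM in late control cells (1.03 ± 0.21, adjusted p = 0.000875). Inhibitor cells had 2 higher (1.11%, background 0.552%) and 1 lower (0.556%, background 0.341%) of the 180. The call at Trp53bp1 was lost in 6 of 12 alternatives, that at Cop1 in 5 and that at Crebbp in 4, and each was lost without any 1 inhibitor library. Trp53bp1 was also lost without early control 1 or 2, and Cop1 without early control 1. Over these omissions the adjusted p was 0.0592 to 0.152 at Trp53bp1, 0.0893 to 0.133 at Cop1 and 0.0599 to 0.0815 at Crebbp.

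Among 245 peaks of other apoptosis genes, 17 were higher (6.94%) and 15 lower (6.12%) in early Fra2 cells, or 13.1% in either direction against a background of 15%, with a median of −0.1. Late Fra2 cells had 10 higher (4.08%) and 14 lower (5.71%), or 9.8% against 9.98%, with a median of −0.09. A peak 64.2 kb from Bcl2l11, the BH3-only gene of Bim, held 8.67 ± 1.14 CPM in early Fra2 against 3.02 ± 0.985 CPM in early control cells (1.55 ± 0.21, adjusted p = 1.37e-07). Cflar, an inhibitor of death receptor signalling, rose 2.6 kb outside the gene, at 19.8 ± 1.19 against 8.36 ± 2.44 CPM (1.19 ± 0.17, adjusted p = 9.73e-07). In late Fra2 cells Bmf, another BH3-only gene, fell at a gene end, at 4.13 ± 0.364 against 7.35 ± 0.705 CPM in late control cells (−0.84 ± 0.17, adjusted p = 0.000833), and rose at a peak 6.3 kb outside, at 5.73 ± 0.261 against 3.04 ± 0.312 CPM (0.91 ± 0.19, adjusted p = 0.00107). In inhibitor cells 2 peaks were lower (0.816%, background 0.341%) and 0 higher (background 0.552%), both at Hrk, a BH3-only gene, the first at 2.39 ± 0.128 against 5.25 ± 1.8 CPM in early control cells (−1.07 ± 0.25, adjusted p = 0.0213), calls that were each lost in 5 of 12 alternatives, the first without early control 2 or any 1 inhibitor library (0.0827 to 0.0884). The other Hrk call was lost without early control 1, early control 3, inhibitor 1 or inhibitor 2 (0.056 to 0.173).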

How the data were processed

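The authors deposited raw read counts per consensus peak for 15 libraries, and 1 peak list per library with a fold enrichment (a ratio) and −log10 p and q values. Per the submitters' processing notes, MACS2 made the peak calls on mm10, and the deposited peak names hold the words trim, bowtie and dedup. Versions, the treatment of multi-mapping reads and the shift of reads for the transposase were not given in the sources used here, and 0 count columns were left unused.

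Counts were fitted with edgeR 4.0.16 (R 4.3.3, quasi-likelihood F-test, TMM scaling, 1 fit of all 15 libraries), after its default filter removed 18 of 206367 peaks. Benjamini-Hochberg adjustment ran over every tested peak of a comparison. Count limits cover counting error only. An SD given after a mean is the spread among the libraries of a group, and an SE comes from the edgeR fit. The fit was tested on simulated data first. Genes came from 21631 protein-coding intervals of RefSeq GRCm38.p6. A gene-end peak is centred within 1 kb of an annotated end. Groups were taken from sample titles.

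The 10 genes and the other gene lists were chosen with earlier results of these data known. Peaks named are each gene's most accessible peak and, per comparison, its called peak with the smallest adjusted p, and for the other lists at most 3 called peaks in each of the first 3 comparisons. Further peaks were named after their values were seen. Alternatives were gene-end TMM factors, cyclic loess (limma 3.58.1), DESeq2 1.42.0, no filter, only the groups compared, a replicate block, leaving out each library, and a 10 kb distance limit.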

Additional observations from a re-analysis of the deposited data

How the results depend on the processing

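No peak named changed its direction of a called change in any alternative run. Of 63 member calls, 25 were kept in every alternative (10 of 21 in early Fra2, 2 of 9 in late Fra2, 0 of 4 in inhibitor cells, 4 of 8 between controls, 9 of 21 between early Fra2 and inhibitor cells). DESeq2 gave no adjusted p for 2 of the 63. With only the groups compared in the fit, early Fra2 cells had 11 member calls of 15004, late Fra2 cells 16 of 33257, inhibitor cells 0 of 11 and late control cells 4 of 1133, and the difference of Fra2 effects 67 calls over all peaks. With gene-end scaling, late Fra2 cells had 35790 calls over all peaks, inhibitor cells 8 member calls of 7931, and the difference of Fra2 effects 1 of 405. With cyclic loess scaling, inhibitor cells had 8 of 5354, the difference of effects 1 of 586 and late control cells 14 member calls. DESeq2 gave inhibitor cells 1 member call and the difference of effects 366 calls over all peaks, and a 10 kb limit left 13 member calls between early Fra2 and inhibitor cells. The cause was not tested.

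Leaving out 1 library at a time gave 15 to 29 member calls and 19720 to 40321 over all peaks in early Fra2 cells, 3 to 9 and 8832 to 19252 in late Fra2 cells, 0 to 6 and 220 to 7565 in inhibitor cells, 0 to 2 and 22 to 579 for the difference of Fra2 effects, 4 to 10 and 2299 to 8685 in late against early control cells, and 14 to 16 and 16776 to 24445 between early Fra2 and inhibitor cells. Same-numbered early Fra2 and early control libraries had correlations of their deviations from the group means of 0.284 (number 1), −0.0076 (number 2) and 0.253 (number 3), and the other comparisons between −0.213 and 0.0513. No comparison had every pair above 0.1, so the numbers were not taken to pair the libraries. With the replicate block, member calls were 22 in early Fra2, 10 in late Fra2 and 5 in inhibitor cells, 0 for the difference of effects, 7 between controls and 21 between early Fra2 and inhibitor cells. Counts near the limit of 0.42 CPM in early control 3 are the least precise.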
